A study of Musa acuminata AAA Group with 12 samples.

Results

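The genes described here are those that were higher in chitosan-coated than in control banana pulp on day 1 and that the control pulp held at a lower mean level on day 7. They were chosen on FPKM, which scales the fragments of a gene by its length and by the total mapped in that library. The lowest coated library of day 1 had to reach an FPKM of 2, and its FPKM plus 1 had to be at least 1.5 times the highest control FPKM of day 1 plus 1. The mean of the control at day 7 had to lie below that of the control at day 1. Of 35272 gene rows with an ID, 252 met these conditions, and the 200 with the largest ratio are the members. All 200 members passed the filter for testing, which 19746 genes did by reaching an FPKM of 1 in 3 or more libraries.

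Pulp was taken from fingers of Cavendish banana (Musa acuminata, AAA Group), all of them treated with ethylene. Control fruit were uncoated and are called 1K when sampled on day 1 and 7K on day 7. Fruit dipped in 1.25% chitosan are called 1A on day 1 and 7A on day 7. Each group had 3 biological replicates, a, b and c. The p-values rest on the spread between pulp samples within groups, which fits of all 12 libraries pool over the 4 groups. The sources used here do not say whether the pulp samples came from separate fingers, hands or bunches.

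Banana is a climacteric fruit: a burst of ethylene and respiration starts ripening, in which starch is turned to sugar and the pulp softens. Chitosan, a polysaccharide made from chitin, forms a film that slows gas exchange through the peel, and fragments of chitosan are also known to set off defence responses in plants. The deposited tables give gene IDs of the DH Pahang reference without product names, and none matched the gene table at hand. The members are therefore described by ID, position and level, without a function, and the pulp label could not be checked against marker genes. In bulk pulp, fewer cells of a type and less RNA per cell cannot be told apart.

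The fragments implied by the deposited intervals came to between 11078141 and 16553611 per library in 11 libraries and to 6136363 in 7A_c. By the read statistics of the study, 1K_c, 1A_a, 1A_b, 7K_c and 7A_c had a lower read GC percentage than the other 7 libraries. This read GC group is uneven between 1K and 1A, with 1 and 2 libraries of lower GC, and even between 7K and 7A, with 1 each. The members had a median of 427 to 484 implied fragments in the 1A libraries, 83.4 to 112 in 1K, 22.8 to 29.0 in 7K and 22.0 to 40.0 in 7A. Day 7 values are thus the least precise, with 60 to 76 of the 200 members under 10 fragments in each day 7 library. The intervals cover counting error only.

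The members took up a small part of the expressed pulp transcriptome in the control and a larger part in the coated fruit of day 1. Their FPKM made up 0.788%, 0.838% and 0.751% of the FPKM sum of 1K_a, 1K_b and 1K_c. In 1A_a, 1A_b and 1A_c they made up 3.66%, 3.40% and 3.33%. All coated libraries of day 1 lay above all controls, which the choice of the members fixes. At day 7 the share was 0.268%, 0.297% and 0.285% in 7K_a, 7K_b and 7K_c. It was 0.387%, 0.350% and 0.403% in 7A_a, 7A_b and 7A_c. The 3 coated libraries of day 7, which the rule did not use, lay above the 3 controls of day 7 and below all day 1 libraries. Without Ma03_g09020, the member with the highest level, the mean share (SD, n = 3) was 2.91% ± 0.133 for 1A, 0.776% ± 0.0473 for 1K, 0.281% ± 0.0143 for 7K and 0.375% ± 0.0253 for 7A.

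**Figure D1:**
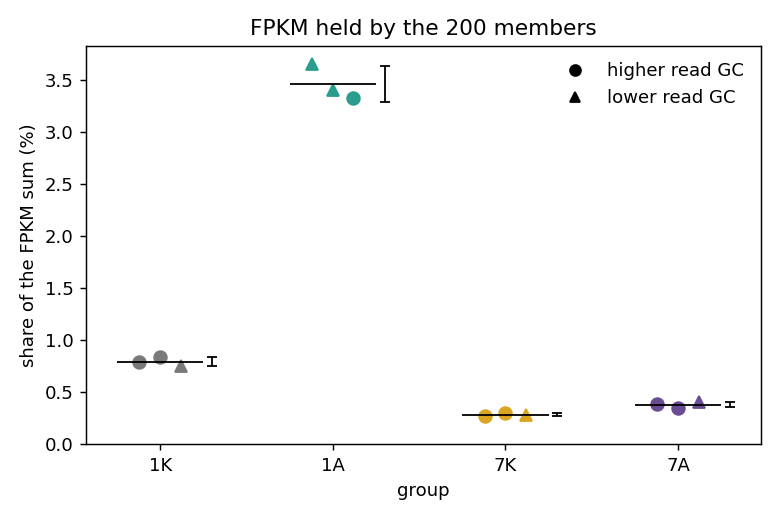
Share of the FPKM sum of each library (y axis, percent) held by the 200 members, by group. Points are libraries (circles for higher, triangles for lower read GC), lines are means and bars are 1 SD (n = 3); the 7A libraries sit between 0.350% and 0.403%, above 7K at 0.268% to 0.297% and far below 1A at 3.33% to 3.66%.

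Levels on day 1 chose the members and are given as a description. The median over members of the mean FPKM was 6.80 in 1K and 29.5 in 1A. The mean in 1A ran from 2.44 to 4959, with 48 members under 10, 105 between 10 and 100 and 47 over 100. The mean FPKM of 1A was a median of 4.15 times that of 1K, from 1.86 times to 108 times, and it was over 10 times that of 1K for 38 members. On the log2(FPKM + 1) scale, which understates the change of low genes, the median difference of 1A - 1K was 1.73. It was 1.81 within the libraries of higher and 1.66 within those of lower read GC, and the rule fixes its sign in both. With limma 198 members were called higher in 1A, against 3.46% of all tested genes. Nothing is read from that count, since the same values chose the members.

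The largest ratios were those of Ma06_g06040 and Ma06_g06180, which lie on chromosome 6 of DH Pahang version 2. Ma06_g06040 (4445020 to 4446897) had an FPKM of 4.05, 3.30 and 4.34 in 1K_a, 1K_b and 1K_c and of 263, 227.5 and 182 in 1A_a, 1A_b and 1A_c. In 7K it had 1.07, 3.59 and 2.82, and in 7A 9.52, 6.23 and 18.4. Coated fruit were thus far higher on day 1, and still above every control library of either day on day 7. Ma06_g06180 (4533300 to 4534127) had 2.03, 2.78 and 5.30 in 1K and 213, 212 and 310 in 1A. It was at 0, 0.55 and 0.34 in 7K and at 0.65, 0.47 and 1.33 in 7A, which stand for at most 4 fragments, and there the groups overlapped.

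The highest levels were those of Ma03_g09020 and Ma02_g09950. Ma03_g09020 (chromosome 3, 6626558 to 6627654) had an FPKM of 104, 117 and 209 in 1K, and of 5940, 5947 and 2990 in 1A. By day 7 it was at 12.3, 13.2 and 35.5 in 7K and at 29.2, 26.0 and 69.2 in 7A. The lower GC library was the highest of its group in 1K, 7K and 7A, and in 1A both lower GC libraries were above the third. This gene is 1 of 3 members, and of 164 of all 19746 tested genes, with a library in which the implied fragments per FPKM are under 0.67 of the gene's own median. Its implied fragments were 2227 to 2322 in 1A and 710 to 1134 in 1K, a far smaller rise than that of its FPKM, which was 34.6-fold. Its rise is therefore uncertain in size, as it would be where fragments are shared with a near-identical copy, which was not tested. Ma02_g09950 (chromosome 2, 19697084 to 19699558) had 414, 646 and 585 in 1K and 2269, 1859 and 1751 in 1A. It then had 74.8, 87.9 and 104.5 in 7K and 121, 104.6 and 128 in 7A, so the groups just failed to overlap. Its adjusted p from limma was 0.726 without a block and 0.0976 with the read GC group as a block.

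The lowest means in 1A were those of Ma08_g15180 (chromosome 8, 15210831 to 15211987), at 2.44 ± 0.438, and Ma09_g30350 (chromosome 9, 40512126 to 40513115), at 2.84 ± 0.774 (SD, n = 3 each). The 1K means were 0.337 ± 0.145 and 0.286 ± 0.319. At this level the members rest on 22.8 to 41.3 implied fragments per 1A library.

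At the end of the list the ratio was 1.62. Ma04_g23980 and Ma09_g19930 were the last members, with 7.90 to 11.98 and 46.6 to 57.1 in 1A against 2.57 to 4.48 and 20.2 to 28.3 in 1K. Ma06_g23610 and Ma08_g16870 were the first left out, with 2.71 to 3.30 and 6.96 to 7.83 in 1A against 1.18 to 1.29 and 2.29 to 3.93 in 1K. The list therefore ends within a continuous range of ratios.

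**Figure D2:**
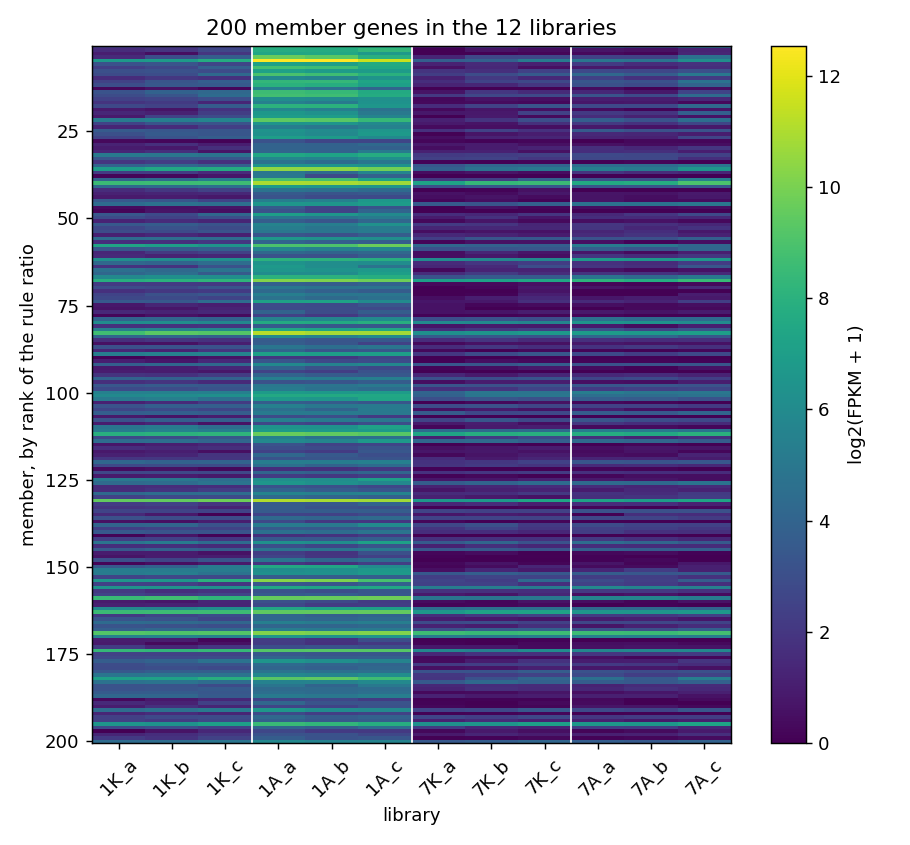
log2(FPKM + 1) (colour) of the 200 members (rows, by rank of the day 1 ratio from the top) in the 12 libraries (columns, white lines between groups). The 1A columns are the brightest by the choice of the members, and most rows are darker in both day 7 groups than in 1K.

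The fall in the control was large for most members, although the rule asked only for a lower mean. The median of the mean FPKM was 1.56 in 7K, and 7K held a median of 29.4% of the 1K level. In 158 members the 3 libraries of 7K lay below the 3 of 1K, against 17.6% of all tested genes, and 135 were called lower with limma against 14.8%. Those shares include genes that rose in the control, which the rule left out. On the log2(FPKM + 1) scale the median difference of 7K - 1K was -0.99 in the members. It was -0.60 among all tested genes with a lower mean in 7K than in 1K. In the 52 genes that met the rule but ranked below the first 200 it was -1.13. These values entered the rule in part and nothing further is read from them. In 5 members all 3 libraries of 7K were listed at 0.

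In the coated fruit, whose day 7 libraries the rule did not use, the members lost their high level as well. The mean FPKM of 7A was a median of 6.47% of that of 1A, and no member kept more than 67.1%. All 200 members had 7A below 1A without overlap, where 20.6% of all tested genes did, but 1A had been chosen as high. The largest falls on the log2(FPKM + 1) scale were those of Ma06_g29150 and Ma06_g06180. Ma06_g29150 (chromosome 6, 30602952 to 30603593) went from 434, 385 and 182 in 1A to 0.83, 1.00 and 2.16 in 7A, a difference of -7.11. It had 3.98, 5.4 and 13.0 in 1K and 0.49, 1.64 and 0.43 in 7K. The smallest falls were those of Ma03_g31210 and Ma08_g20690. Ma03_g31210 (chromosome 3, 33501080 to 33509116) had 10.95, 11.6 and 12.04 in 1A and 7.99, 7.61 and 7.63 in 7A, a difference of -0.52, while control fruit had 4.98, 4.82 and 4.66 in 1K and 4.97, 4.38 and 4.43 in 7K. Its coated libraries were above all control libraries on both days. Ma08_g20690 (chromosome 8, 34785910 to 34788375) had 5.44, 4.78 and 6.79 in 1A and 2.81, 2.17 and 1.81 in 7A, against 0.365 to 1.58 in the control libraries of both days.

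Coated fruit of day 7 were also compared with the control of day 1. The level of 7A was a median of 33.0% of that of 1K, and the median difference was -0.84 on the log2(FPKM + 1) scale. That of all tested genes was 0.26. Among the 6726 tested genes with a lower mean in 7K than in 1K it was -0.69. In the 52 genes that met the rule but ranked below the first 200 it was -1.16, so the members lay between these sets. With limma, 118 of the 200 members were lower in 7A than in 1K and 5 were higher, against 16.0% and 24.6% of all tested genes. The groups did not overlap in 135 members with 7A lower and in 8 with 7A higher, against 19.5% and 29.0%. The comparison shares 1K with the rule, which held 1K low against 1A and high against 7K. The shares over all tested genes also include genes that rose in the control, which the rule left out. The number that were higher depended on the fit, at 1 with median-of-ratios scaling and 2 with quantile normalization or without 1K_a. It was 11 with the read GC group as a block and 13 with that block without 7K_b. In that order, these fits called 3907, 4415, 3957, 8962 and 9036 of all 19746 tested genes higher. The number of members thus rose with that of all genes. The 5 in the fit without a block were Ma06_g06040, Ma08_g31230, Ma10_g18120, Ma08_g20690 and Ma03_g31210. Ma08_g31230, named after its values were seen, had a mean FPKM of 72.4 in 1K and 104 in 7A (log2 difference 0.52, adjusted p = 0.00774 from limma).

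A question that the rule did not address is whether coated fruit still differed from control fruit on day 7. In the fit of the 12 libraries without a block, limma called 4 of the 200 members (2.0%) higher in 7A than in 7K and 0 lower, against 0.0810% and 0.0608% of all tested genes. At an unadjusted p under 0.05, limma gave 43 of the 200 members, against 7.64% of all tested genes. Among the 6726 tested genes that also had a lower mean in 7K than in 1K, 0.178% were called higher. That group is the closer background, since a low 7K mean favours a higher 7A. With the replicate letter as a block in all 12 libraries limma called 0 members, against 0.00% of all tested genes higher and 0.0101% lower, and gave 39 members at an unadjusted p under 0.05, against 6.82%. With that block in the 6 day 7 libraries alone 7 were called higher and 0 lower, against 0.213% and 0.137%. With the read GC group as a block, 41 members (20.5%) were called higher in 7A and 1 lower. The background of that fit was 1.87% higher and 7.20% lower over all tested genes, and 4.09% higher and 4.70% lower among genes with a lower mean in 7K than in 1K. Without the shallow 7A_c, it called 32 members higher and 0 lower, against 1.5% and 3.06% of all tested genes.

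The 4 members called without a block were Ma10_g18120, Ma02_g19880, Ma09_g27560 and Ma06_g21690. Ma10_g18120 (chromosome 10, 29201316 to 29205784) had an FPKM of 7.01, 8.22 and 6.83 in 7K and of 24.7, 19.8 and 20.1 in 7A. It had 15.7, 16.7 and 14.2 in 1K and 47.5, 50.8 and 62.8 in 1A, so control and coated fruit did not overlap on either day. The log2 difference of 7A - 7K was 1.43 ± 0.16 (SE), at a limma adjusted p of 0.00996. Ma02_g19880 (chromosome 2, 26009485 to 26011900) had 2.56, 3.03 and 4.36 in 7K and 9.27, 8.53 and 9.52 in 7A, a log2 difference of 1.25 ± 0.17 (SE) at a limma adjusted p of 0.0227. The 7A values lay below the 14.2 to 17.4 of 1K. Ma09_g27560 (chromosome 9, 38520627 to 38521817) had 10.6, 8.70 and 13.3 in 7K and 25.3, 26.2 and 30.4 in 7A, a log2 difference of 1.27 ± 0.18 (SE) at a limma adjusted p of 0.0243. Its 7A values lay just above those of 1K, at 20.5 to 25.1. Ma06_g21690 (chromosome 6, 16048742 to 16049386) had 8.38, 11.1 and 11.1 in 7K and 26.9, 19.4 and 32.9 in 7A, a log2 difference of 1.27 ± 0.20 (SE) at a limma adjusted p of 0.0477. Its level in 1K was 59.7 to 74.9.

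These 4 differences kept their direction under all 33 alternatives. The adjusted p was under 0.05 in 30 alternatives for Ma10_g18120, 22 for Ma02_g19880, 20 for Ma09_g27560 and 14 for Ma06_g21690. It was highest, at 0.293, 0.759, 0.537 and 0.794, with only the 6 day 7 libraries in limma, and lowest, at 5.36e-05, 0.000283, 0.000554 and 0.000388, with a read GC block.

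**Figure D3:**
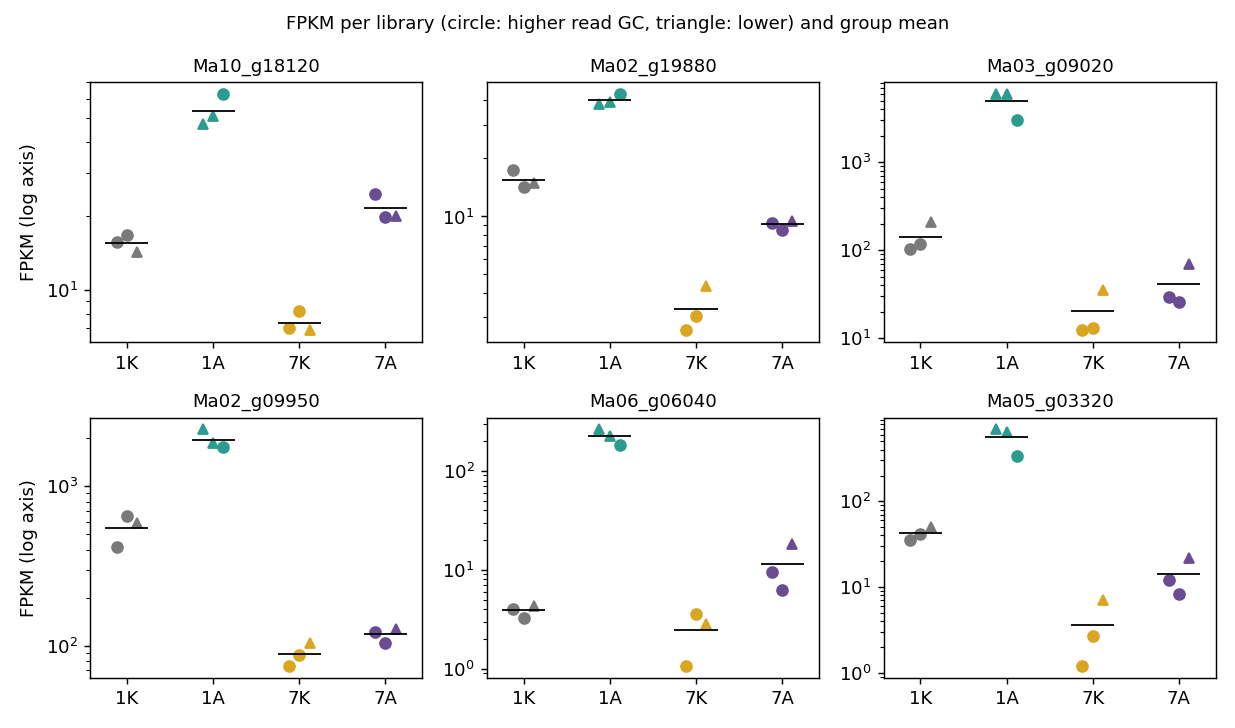
FPKM (log axis) of 6 members in the 4 groups, as points per library and the group mean as a line. Ma10_g18120 and Ma02_g19880 were called in 7A against 7K without a block, Ma03_g09020 and Ma02_g09950 had the highest levels in 1A, and Ma06_g06040 and Ma05_g03320 the largest positive differences of 7A - 7K; triangles are the libraries of lower read GC.

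The largest positive differences of 7A - 7K were those of Ma05_g03320 and Ma06_g06040, and neither was called without a block. Ma05_g03320 (chromosome 5, 2358523 to 2359736) had 1.20, 2.68 and 6.97 in 7K and 12.2, 8.21 and 21.8 in 7A, with 35.6 to 50.5 in 1K and 334 to 692 in 1A. The lower GC library was the highest in 7K and in 7A, and the log2 difference was 1.95 within the higher and 1.51 within the lower GC group. The difference over all libraries was 1.81, with an adjusted p from limma of 0.275 without a block and 0.00143 with the read GC group as a block. For Ma06_g06040 the differences were 1.5 within the higher and 2.34 within the lower GC group. The adjusted p from limma was 0.140 without and 0.00470 with the block. The largest negative differences were -0.52 for Ma07_g21110 and -0.50 for Ma03_g33380. Ma07_g21110 (chromosome 7, 29209377 to 29217353) had 7.21, 7.07 and 8.70 in 7K and 5.10, 6.01 and 4.09 in 7A. Its adjusted p from limma was 0.353 without and 0.0252 with the read GC block, so it is the 1 member called lower there.

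Over all 200 members the median log2 difference of 7A - 7K was 0.12, where that of all tested genes was -0.13 and that of genes with a lower mean in 7K than in 1K was -0.07. The difference was above 0 in 126 members (63.0%) and below 0 in 72, while it was above 0 in 27.6% of all tested genes and in 38.3% of those lower in 7K. The 3 libraries of 7A lay above the 3 of 7K without overlap in 41 members (20.5%) and below them in 12. The background was 1.98% above and 9.83% below over all tested genes, and 3.93% above and 7.42% below among genes lower in 7K. Median-of-ratios scaling moves the median of all tested genes from -0.13 to 0.00. It moved that of the members from 0.12 to 0.21, so they lay above the median gene under both scalings. The gap depended on single libraries. Without 7A_c the median was 0.08 for the members and 0.00 for all tested genes, and without 7K_a it was 0.06 and -0.08. The difference was then above 0 in 64.5% of members against 49.9% of all tested genes without 7A_c, and in 58.5% against 39.4% without 7K_a. Among the 117 members with a mean FPKM of at least 1 in 7K, the mean of 7A was a median of 1.24 times that of 7K, and over the 18086 tested genes at that level it was 0.902 times.

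Within the 4 day 7 libraries of higher read GC, the median difference of the members was 0.13, with 136 above 0 (68.0%). Over all tested genes it was -0.08 there, with 37.4% above 0, and 47.2% of genes lower in 7K were above 0. Between 7A_c and 7K_c, the single pair of lower read GC, the members' median was 0.11, with 118 above 0 (59.0%). Over all tested genes it was -0.23 there, with 22.9% above 0, and 30.3% of genes lower in 7K were above 0. Both GC groups gave a positive difference in 99 members (49.5%) and a negative one in 40 (20%). Over all tested genes these shares were 13.1% and 52.1%, and among genes lower in 7K they were 19.97% and 41.0%. The pair of lower GC holds the shallow library 7A_c and has no replicate.

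**Figure D4:**
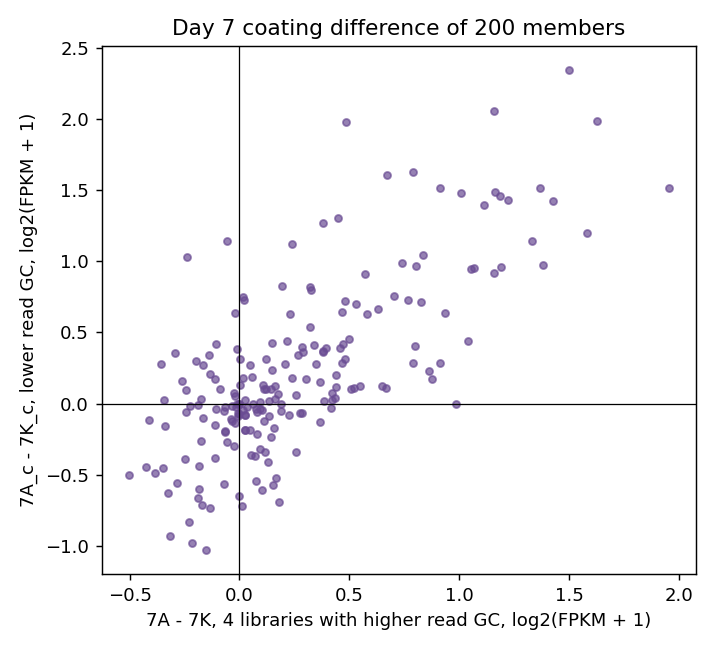
Difference of 7A - 7K in log2(FPKM + 1) for each of the 200 members, within the 4 day 7 libraries of higher read GC (x axis) and between 7A_c and 7K_c of lower read GC (y axis). The upper right field, with a positive difference in both, holds 99 members and the lower left field 40.

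The day 7 difference was larger at the top of the list than further down. Among the 50 members with the largest day 1 ratio, 43 had a positive difference of 7A - 7K, with a median of 0.55, and the mean of 7A was a median of 1.99 times that of 7K. In the next 3 sets of 50, there were 29, 30 and 24 positive differences, with medians of 0.04, 0.08 and -0.02. The read GC block called 20, 10, 8 and 3 members higher in the 4 sets in order. Its background was 1.87% of all tested genes and 4.09% of those lower in 7K. Without overlap, 7A lay above 7K in 18, 11, 7 and 5 members, against 1.98% and 3.93%. It lay below 7K in 0, 3, 3 and 6, against 9.83% and 7.42%. In the last set the calls (6%) were near the share of genes lower in 7K, and more members lay below than above. The order of the list rests on 1A and 1K only. The median of the mean 7K FPKM was 1.28, 1.36, 1.59 and 2.15 in the 4 sets. That of the mean 1A FPKM was 85.1, 29.3, 15.6 and 17.4, and the median locus spanned 1215, 1878, 2365.5 and 2740 bp. Whether level or locus length has a part in the day 7 difference between the sets was not tested. Across the 200 members the Pearson r between the difference of 1A - 1K and that of 7A - 7K was 0.50, over all tested genes it was 0.016, and it was 0.57 over 163 genes that met the same day 1 conditions but had a higher mean in 7K than in 1K. The 2 differences share no library, but these are correlations across genes, which are not independent replicates.

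**Figure D5:**
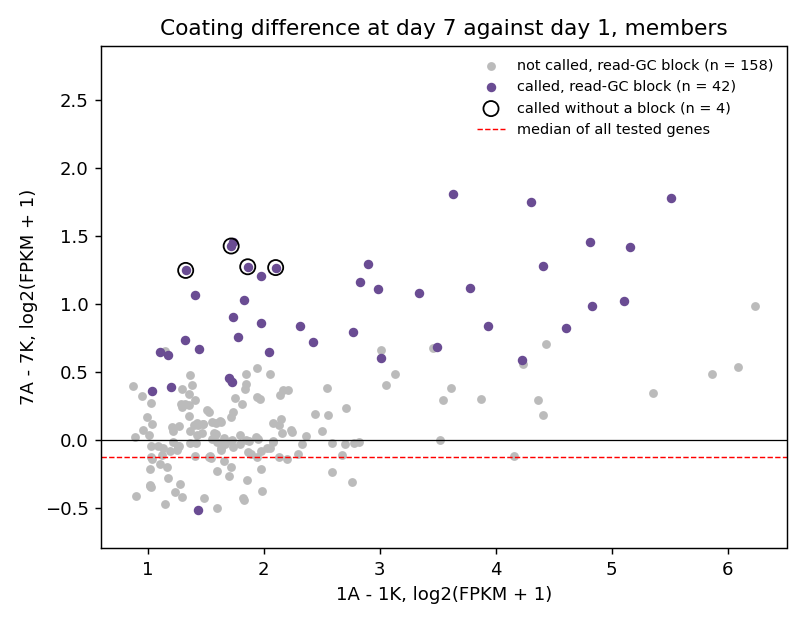
Difference of 7A - 7K against that of 1A - 1K, both in log2(FPKM + 1), for the 200 members. Purple points are the 42 called with the read GC group as a block (41 higher, 1 lower), open circles the 4 called without a block, and the dashed line is the median of all tested genes, at -0.13.

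The 41 members called higher with the read GC block had differences of 0.36 to 1.81, with a median of 0.98. In 32 of them the libraries of 7A and 7K did not overlap. Their level had fallen nonetheless: 7A was a median of 6.43% of 1A in these genes, and the mean of 7A lay below that of 1K in 23 of the 41. In most of them 7A was thus above 7K but small beside 1A. The same median was 6.47% over all 200 members, so the size of the fall was not particular to the 41. Whether the day 7 difference was left over from day 1 was not tested.

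These 163 genes that rose in the control form the nearest comparison. Their median difference of 1A - 1K was 1.5, beside the 1.73 of the members. Their median difference of 7A - 7K was -0.09, with 67 above 0 (41.1%), where 63.0% of the members and 27.6% of all tested genes were above 0. The read GC block called 19 of the 163 higher and 7 lower, where it called 41 and 1 of the 200 members. Its background was 1.87% higher and 7.20% lower over all tested genes, so frequent calls of a higher 7A were not particular to the members. The condition on 7K pushes 7A - 7K up in the members and down in these genes, and whether the sets differ beyond it was not tested.

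Locus length was not a condition of the rule, though gene length enters FPKM, and the members often had short loci. Their loci spanned a median of 1913 bp, from 348 to 24238 bp, where tested genes spanned a median of 4285 bp. A locus under 1 kb was found in 40 members (20%) and in 9.74% of all tested genes. The 163 genes that rose in the control also had short loci, with a median of 2054 bp and 20.9% under 1 kb, so short loci were not particular to the members. The 50 members with the largest ratios had a median of 1215 bp, and the last 50 had 2740 bp. The 40 short members had a median mean FPKM of 92.3 in 1A and a median difference of 1A - 1K of 2.18, where the 160 longer ones had 24.2 and 1.65. The libraries of 1A were ordered differently in short and in longer genes. In 27 of the 40 short members (67.5%) the higher GC library 1A_c was the lowest of 1A, as in 53.8% of all tested genes under 1 kb, while this was so in 47 of the 160 longer ones (29.4%) and in 26.0% of the longer tested genes. It was the highest of 1A in 25% of the short members, 48.1% of the longer ones, 27.0% of the tested genes under 1 kb and 64.2% of the longer tested genes. As 1A_c is the only 1A library of higher read GC, GC and this library cannot be told apart. On day 7, 30 of the 40 short members had a positive difference of 7A - 7K, and so had 96 of the 160 longer ones. The read GC block called 12 (30%) and 29 (18.1%) of them higher, against 2.91% and 1.76% of the tested genes of those lengths.

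Members lay on all 11 chromosomes, with 10 members on chromosome 11 as the fewest and 25 on chromosome 4 as the most. They made up from 0.686% of the tested genes on chromosome 11 to 1.34% on chromosome 2, and there was none among the 212 tested genes on unplaced sequence. In 7 places members were next to each other in the gene order of the tables, 15 members in all. The longest such run had 3 genes on chromosome 9, Ma09_g30670 (40689795 to 40690291), Ma09_g30680 (40695181 to 40695592) and Ma09_g30690 (40695986 to 40696426), which span 496, 411 and 440 bp. Ma09_g30670 had an FPKM of 122, 185 and 213 in 1K, and of 1390, 1355 and 937 in 1A. It was at 13.5, 25.1 and 33.0 in 7K and at 41.7, 34.9 and 93.8 in 7A, above every 7K library. Ma09_g30690 had 4.51, 8.90 and 12.9 in 1K, 318, 324 and 162 in 1A, 2.11, 4.78 and 5.52 in 7K and 9.06, 7.91 and 26.1 in 7A. Ma09_g30680 had 0.84, 4.49 and 6.47 in 1K, 123, 121 and 49.4 in 1A, at most 0.85 in 7K and at most 1.98 in 7A. All 3 genes were high in 1A_a and 1A_b, lower in 1A_c and lower still in the other groups. With the read GC block the adjusted p of 7A - 7K from limma was 0.0118 for Ma09_g30670, 0.363 for Ma09_g30680 and 0.00803 for Ma09_g30690. Neighbours of such similar length can be near-identical copies, which was not tested. The check of implied fragments per FPKM that marked Ma03_g09020 marked none of these 3 genes. The counting of fragments that fit several genes is not given in the sources used here, so how the fragments are divided among the 3 is uncertain.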

How the data were processed

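RNA-seq of banana pulp was analysed from 12 libraries. The deposited values are FPKM with interval bounds, which the authors obtained with Cufflinks after read checks in FastQC and TopHat alignment to version 2 of the DH Pahang assembly. Strand and the treatment of reads that fit several genes are not given in the sources used here. Of the deposited rows, 1 has no ID and was left out, and 1 ID occurs in 2 rows, kept apart. A status of FAIL was found in 1 row, which is no member. Coordinates are those of the deposited tables. Dividing 2 FPKM by the distance from the FPKM to its upper bound, and squaring the result, gave the implied fragments. No sequences of this build were at hand, so none are shown.

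FPKM was tested as log2(FPKM + 1) with limma 3.58.1 in R 4.3.3, with an intensity trend, over 19746 genes in 1 fit of the 4 groups, and a gene was called at a Benjamini-Hochberg adjusted p under 0.05 over all of them. Tables were handled with pandas 2.3.3 and numpy 2.4.6 in Python 3.11.15 and drawn with matplotlib 3.10.9. Tests are read only for 7A, which the rule did not use, against 7K and 1K, and calls in the other comparisons are given as a description. The members and the tests were chosen with earlier results of these data known. Genes are named by a rule: the largest and smallest ratios, levels, differences and falls (2 each), the members called in 7A against 7K and the longest run of neighbours.

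Replicate letters come from the labels. Deviations from the group means of libraries with the same letter had a Pearson r over tested genes of 0.712, 0.466 and 0.855 between 7A and 7K, and blocked values are therefore given. Unlike letters of the same read GC group correlated as well, at 0.482 (7A_a with 7K_b) and 0.668 (7A_b with 7K_a). On day 7 letter c and the lower read GC group coincide and cannot be told apart. Of letters a and b, both of higher read GC, 7A_a and 7A_b each correlated more with 7K_a than with 7K_b. Between 1A and 1K, where the read GC group falls on other letters, like letters were at -0.607, -0.626 and -0.866. Libraries of the same read GC group were at 0.775 (1A_a with 1K_c), 0.723 (1A_b with 1K_c), 0.675 (1A_c with 1K_a) and 0.746 (1A_c with 1K_b). On day 1 the deviations thus went with the read GC group and not with the letter. Replicate blocks, read GC blocks, other pseudocounts, filters and scalings, fits of 6 libraries, voom on the implied fragments and each library left out were tried. The replicate block in 6 libraries, the read GC block with median-of-ratios scaling and the read GC block without single day 7 libraries were added after seeing the data.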

Additional observations from a re-analysis of the deposited data

How the results depend on the processing

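The number of members called in 7A against 7K, 4 without a block, was 2 with median-of-ratios scaling, 2 with voom, 0 with the replicate block (39 members at an unadjusted p under 0.05 from limma) and 0 with only the 6 libraries compared (32 members at that level). The number ranged from 0, without 7K_b (40 members at that level), to 3 when single libraries were left out, and all of those calls were higher in 7A. Where no member was called, hardly any gene was. Over all tested genes the replicate block called 0 higher and 2 lower, the fit of 6 libraries 0 and 1, and the fit without 7K_b 1 and 2. At the unadjusted level these fits gave 6.82%, 4.36% and 4.69% of all tested genes. Median-of-ratios scaling called 12 higher and 3 lower, and voom 14 and 4. The replicate block in the 6 libraries gave 7. The read GC block gave 42, 40 with quantile normalization, 53 with median-of-ratios scaling and 36 together with the replicate block. Without single day 7 libraries, it gave 41 (7K_a), 39 (7K_b), 31 (7K_c), 30 (7A_a), 36 (7A_b) and 32 (7A_c), and without 7K_a 5 of the 41 were lower in 7A. Over all tested genes those fits called from 190 (without 7A_a) to 410 (without 7K_a) higher, and from 280 (without 7K_c) to 2108 (without 7K_a) lower. Over all tested genes the count without a block was 28 and with the read GC block 1792, of which 370 were higher, while with quantile normalization added 492 of 802 were higher and with median-of-ratios scaling 678 of 1029.

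The members' median of 7A - 7K was 0.22 with quantile normalization, with or without the read GC block, and 0.35 with voom, and it was lower, at 0.048, with a pseudocount of 5, 0.065 without 7K_a and 0.077 without 7A_c. That of 7A - 1K was -1.46 with a pseudocount of 0.1 and with voom, -0.41 with a pseudocount of 5, -0.99 with a minimum FPKM of 5, -1.02 with median-of-ratios scaling and -1.005 with quantile normalization, both with and without the read GC block, and -0.93 to -0.80 when single libraries were left out. The members called in 7A against 1K, both directions together, stayed within 1.5 times their number under every alternative. Those called higher went from 5 without a block to between 1 and 13. Over all tested genes the fit without a block called 4866 higher, that with 1 member 3907 and that with 13 members 9036.

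Near 0, the uncalled difference of Ma09_g19930 turned from -0.04 to 0.11 with median-of-ratios scaling (0.11 also with the read GC block), to 0.093 with quantile normalization (0.093 also with that block), to 0.014 with voom and to 0.025 with the block without 7K_c, and lay between -0.180 and 0.12 with single libraries left out. With the read GC block those of Ma08_g15180, Ma09_g30350 and Ma06_g29150 turned to -0.0099 without 7K_b, -0.022 without 7A_c and -0.17 without 7K_c. The cause was not tested.

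The rule itself was met by 306 genes after median-of-ratios scaling and 286 after quantile normalization, of which 159 and 161 of the first 200 were members. Without 1A_c 380 genes met it, and 157 of the first 200 were members.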

Other observations

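Day 7 values are also given for the 52 genes that met the rule but ranked below the first 200. Their median difference of 7A - 7K was -0.08 on the log2(FPKM + 1) scale, with 17 above 0 and 35 below. That of all tested genes was -0.13 and that of genes lower in 7K than in 1K was -0.07. The groups did not overlap in 3 of the 52 genes with 7A higher and in 5 with 7A lower. The background was 1.98% and 9.83% of all tested genes, and 3.93% and 7.42% of those lower in 7K. The read GC block called 2 higher and 4 lower, against 1.87% and 7.20%, and 4.09% and 4.70%. Nothing is read from counts this small. Their loci spanned a median of 2318 bp.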
